A study of Mus musculus with 6 samples.

Results

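Glycolysis, pentose phosphate and hypoxia genes were examined by mRNA-seq of day 4 embryoid bodies (EBs) from mutant mouse embryonic stem cells (mESCs). A fixed list of 35 symbols was used, made up of 18 enzymes of glycolysis and lactate formation, 7 enzymes of the pentose phosphate pathway and 10 genes of the HIF1 (hypoxia-inducible factor 1) pathway. All 35 were among the 15266 genes of the table, 34 under the given symbol and 1, *Pkm2*, under its current symbol *Pkm*. The rule for the list uses symbols and no measured value, though the members were chosen with earlier results of these data known. Of the 35 genes, 34 had enough reads to be tested, and *Car9* did not.

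EBs are suspension aggregates of mESCs that model early development, and the study asked what *Evx1*, a homeobox gene of the primitive streak, and its antisense RNA *Evx1as* do there. Both lines came from W9.5 mESCs edited with CRISPR-Cas9. The Evx1Δfs line is Clone 14, a single clone with small frame-shifting deletions in *Evx1* on both alleles and an otherwise intact locus. Del3 (Evx1/Evx1asΔ2.6kb) was derived from a picked clone that lacks 2.6 kb of the locus shared by both genes. Thus, no functional EVX1 is predicted in either line, and the comparison addresses the loss of the shared locus on top of the loss of EVX1. An effect of the deletion cannot be told apart from other differences between the clones. EBs of both lines were grown for 4 days in serum-containing medium without LIF, which keeps mESCs undifferentiated, and the labels name no oxygen or glucose treatment. There were 3 differentiations of each line. The series' design text says that the lines were differentiated side by side, each time on a different day, and the replicate number was taken to mark that shared set-up.

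Glycolysis turns glucose into pyruvate, and lactate dehydrogenase then turns pyruvate into lactate. The pentose phosphate pathway branches off at glucose 6-phosphate and yields NADPH and the ribose of nucleotides. HIF1 is a transcription factor whose alpha subunit, encoded by *Hif1a*, is hydroxylated by prolyl hydroxylases (*Egln1*, *Egln3*) and degraded when oxygen is plentiful; many glycolytic genes are its known targets. HIF1A is therefore regulated largely as a protein, which mRNA levels do not measure.

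The libraries held 9024579 to 15699124 reads on listed genes. The replicate 1 libraries were the deepest, with 15699124 reads in Evx1Δfs and 12231851 in Del3, and the others held 9024579 to 9802928. *Evx1* had 2582 to 4023 reads in the Evx1Δfs libraries and 28 to 48 in the Del3 libraries, as the labels imply. Of 6 primitive streak and mesoderm markers, all 6 passed the read filter, and their summed level was 7624 to 9104 normalized counts in Evx1Δfs and 6049 to 8427 in Del3. Of 4 neurectoderm markers, *Sox1*, *Pax6* and *Zic1* stayed at or under 10.7 normalized counts in each of the 6 libraries, and *Nes* had 1459.9 to 2275. The 6 pluripotent markers all had log2 fold changes below 0 in Del3 (median -0.24, lowest -0.82 for *Zfp42*), 0 passed the test, and their sums overlapped, at 8429 to 9915 in Evx1Δfs and 6237 to 10404 in Del3. Levels are given as normalized counts, which are reads divided by 1 size factor per library, or as RPKM, reads per kilobase of exon scaled to the library's total, when genes are compared with each other.

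*Pkm*, *Ldha* and *Gapdh* were the most highly expressed of the 35 genes per length. *Pkm*, the pyruvate kinase gene, stood at 1981 ± 223 RPKM in Evx1Δfs and 1944 ± 454 RPKM in Del3 (mean ± SD, n = 3 for each line here and below). Averaged over the 6 libraries it was at rank 19 of 12696 tested genes with an exon length. *Ldha*, the main muscle-type lactate dehydrogenase subunit, stood at 1519 ± 186 and 1521 ± 363 RPKM and ranked 25. *Gapdh* stood at 1358 ± 61.2 and 1434 ± 301 RPKM and ranked 30. For each of these genes the SD within Del3 exceeded the distance between the line means; for *Gapdh* the SD within Evx1Δfs did not. *Aldoa*, which cleaves fructose bisphosphate, followed at 743 ± 134 and 826 ± 156 RPKM. Further down lay the triose phosphate isomerase gene *Tpi1*, at 461 ± 107 and 451 ± 128 RPKM, and the mutase gene *Pgam1*, at 407 ± 60.0 and 423 ± 39.4 RPKM.

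Among pentose phosphate genes, *Taldo1* and *Tkt*, which encode the carbon-shuffling enzymes of the non-oxidative branch, were highest per length. *Taldo1* stood at 165 ± 38.4 RPKM in Evx1Δfs and 164 ± 43.3 RPKM in Del3, and *Tkt* at 105 ± 9.58 and 111 ± 13.6 RPKM. The oxidative enzymes *G6pdx*, *Pgls* and *Pgd* had means over all 6 libraries of 45.6, 47.0 and 66.5 RPKM. *Rpia* and *Rpe*, which interconvert the pentose phosphates, were at 3.47 and 4.70 RPKM. In the hypoxia group, *Egln1* led with 46.1 ± 16.3 and 54.0 ± 11.4 RPKM. *Hif1a* itself was at 4.60 ± 3.82 and 5.25 ± 2.45 RPKM, and *Car9*, a carbonic anhydrase gene widely used as a hypoxia marker, was at 0.142 to 0.491 RPKM. Long exon sets (8532 bases for *Hk1*, 9395 for *Pfkp*) lower the level per length where transcripts use only part of them, which was not measured here.

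**Figure D1:**
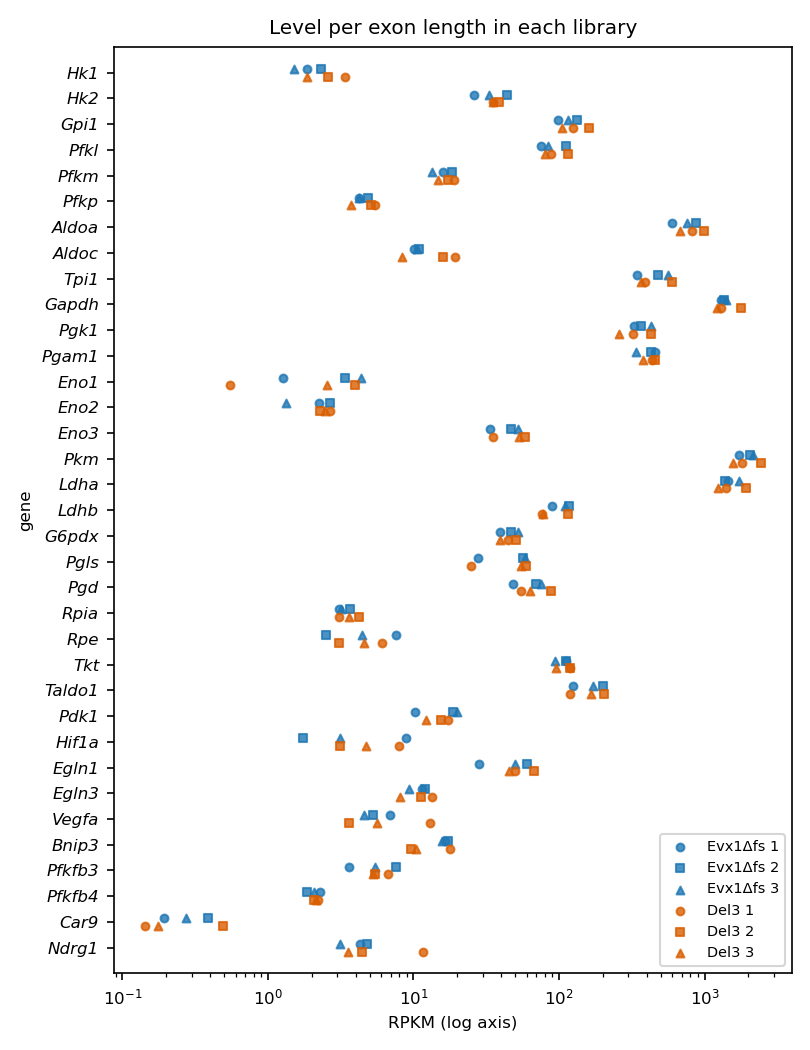
RPKM (log axis) of the 35 genes in each of the 6 libraries; colour marks the line and the marker shape the replicate number. The 3 most abundant genes, *Pkm*, *Ldha* and *Gapdh*, lie at or above 1221 RPKM in all 6 libraries, and *Car9* lies at or below 0.491 RPKM in all 6.

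The lines were compared first, which asks whether removing the shared locus changes these pathways beyond the frame shift. Of the 34 genes tested, 0 were called higher or lower in Del3 (limma, Benjamini-Hochberg adjusted p under 0.05), against 2 of 12891 genes overall (0.0155%). At an unadjusted p under 0.05, 133 genes passed (1.03%) and again 0 of the 34. Adding the replicate number as a block gave 3 genes overall (0.0233%) and 0 of the 34; at an unadjusted p, it gave 596 (4.62%) and 0 of the 34. DESeq2 called 3 genes overall and 0 of the 34, and with the block 9 (0.0726%) and 0 of the 34. The median log2 fold change of Del3 against Evx1Δfs was 0.036 over the 34 genes and 0.0022 over all genes tested. The 34 values ran from -0.60 for *Eno1* to 0.46 for *Ndrg1*, and 21 were above 0 (50.4% of all genes tested were). Leaving out 1 library at a time moved the median between -0.086 and 0.11. The sign of the fold change differed under at least 1 alternative for 28 of the 34 genes, and stayed the same under every alternative run for *Hk1*, *Aldoc*, *Eno2* (above 0), *Pgk1*, *Ldhb* and *Bnip3* (below 0). In no gene of the 34 did the 3 Del3 libraries all lie above or all below the 3 Evx1Δfs libraries. That occurred in 1.71% (higher in Del3) and 1.80% (lower) of all genes tested.

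A p that misses the threshold does not show equal expression, so the intervals of the differences are given. The 95% interval lay within a 2-fold change either way for 26 of the 34 genes, against 61.1% of all genes tested. With the replicate block it did so for 32 of the 34, against 76.2%; the exceptions were *Eno1* and *Ndrg1*. By role, the interval without the block was within 2-fold for 15 of 18 glycolytic genes, 6 of 7 pentose phosphate genes and 5 of 9 hypoxia genes. *Hk1* and *Pfkm* were higher in Del3 in each of the 3 same-numbered pairs (12.1% of all genes tested were), and 0 of the 34 were lower in each pair (11.0%). Reads on the 35 genes made up 1.86%, 2.15% and 2.23% of reads in Evx1Δfs replicates 1 to 3 and 1.99%, 2.61% and 1.76% in Del3. The line means, 2.08% ± 0.195 and 2.12% ± 0.437 (SD, n = 3), did not differ beyond that spread (exact permutation test, two-sided, p = 1.00, where 0.1 is the smallest value that 3 libraries a line allow).

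**Figure D2:**
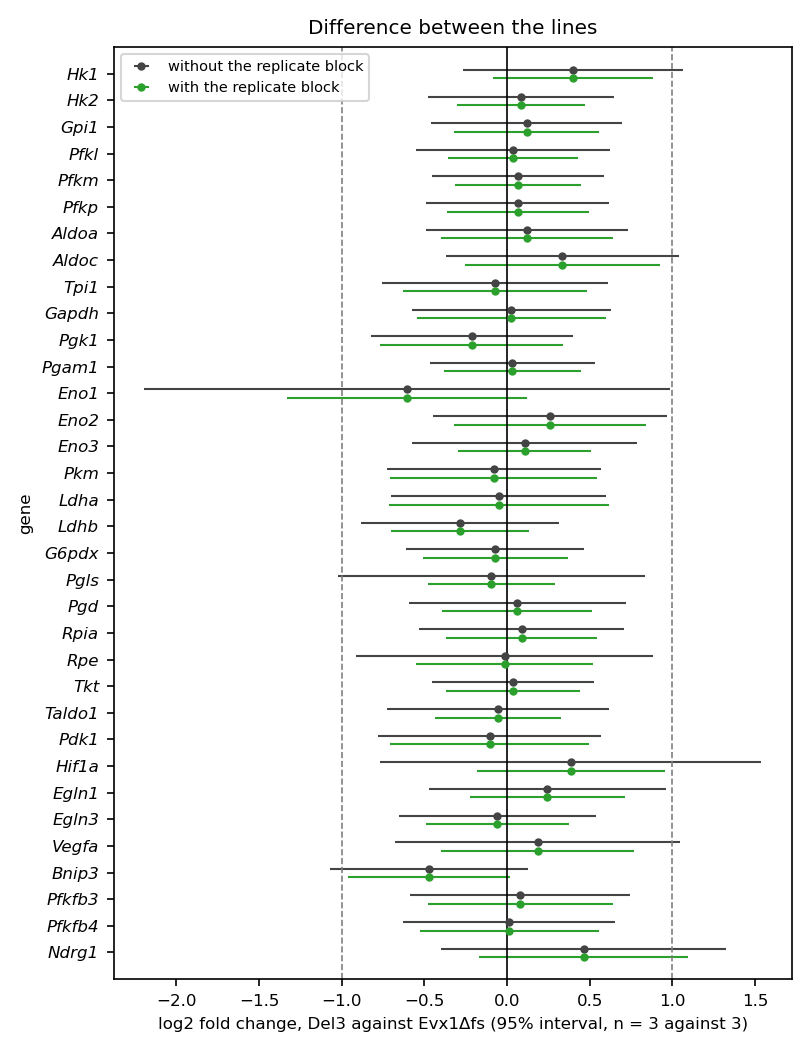
Log2 fold change of Del3 against Evx1Δfs for the 34 tested genes, with 95% intervals from limma without (grey) and with (green) the replicate block; dashed lines mark a 2-fold change. All 34 intervals include 0 in both fits, and *Eno1* has the widest interval without the block, from -2.19 to 0.98.

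Of the 6 upper glycolytic genes, 5 had log2 fold changes between 0.03 and 0.12, and *Hk1* had 0.40. *Hk2*, the hexokinase that dominates in these EBs, had 1621, 2769 and 2208 normalized counts in Evx1Δfs replicates 1 to 3 and 2043, 2629 and 2192 in Del3, a log2 fold change of 0.08 (95% interval -0.48 to 0.64). The Evx1Δfs values bracketed all 3 Del3 values. *Hk1*, the broadly expressed hexokinase, had 165, 209.8 and 147 against 281, 249.7 and 167. Its log2 fold change of 0.40 had an interval of -0.27 to 1.06, and the Del3 replicate 3 value lay among those of Evx1Δfs. For *Gpi1*, which isomerises glucose 6-phosphate, the log2 fold change was 0.12 (-0.46 to 0.70). The phosphofructokinase genes *Pfkl*, *Pfkm* and *Pfkp*, which encode subunits of the committed step, had log2 fold changes of 0.03, 0.07 and 0.06.

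For *Pkm*, *Ldha* and *Gapdh*, Del3 replicate 2 lay above the other libraries. *Pkm* had 42900.2, 51793 and 58315 normalized counts in Evx1Δfs replicates 1 to 3 and 42231, 66169.8 and 39314 in Del3. *Ldha* had 44494, 43683 and 58219.7 against 40907, 64925 and 38336. *Gapdh* had 30185, 32571 and 35942 against 28605, 45273 and 28793. In all 3 genes the other Del3 libraries were the lowest, and log2 fold changes were -0.08, -0.05 and 0.03 with intervals inside 2-fold. Del3 replicate 2 was the highest library for 18 of the 34 genes, against 19.4% of all genes tested, a feature picked after the values were seen. *Pgk1*, which makes the first ATP of the payoff phase, had a log2 fold change of -0.21 (-0.82 to 0.40). *Ldhb*, the heart-type subunit, had one of -0.28 (-0.88 to 0.31). The remaining lower glycolytic genes had log2 fold changes of 0.12 (*Aldoa*), -0.07 (*Tpi1*), 0.03 (*Pgam1*), 0.26 (*Eno2*, the neuronal enolase) and 0.11 (*Eno3*). The brain-type aldolase gene *Aldoc* had 342, 379.7 and 388 normalized counts in Evx1Δfs and 609.7, 586 and 283 in Del3, so its highest and its lowest values were both in Del3 libraries. Its log2 fold change was 0.34 (-0.37 to 1.04), and the unadjusted p fell below 0.05 only when Del3 replicate 3 was left out, with an adjusted p above 0.99 in limma.

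**Figure D3:**
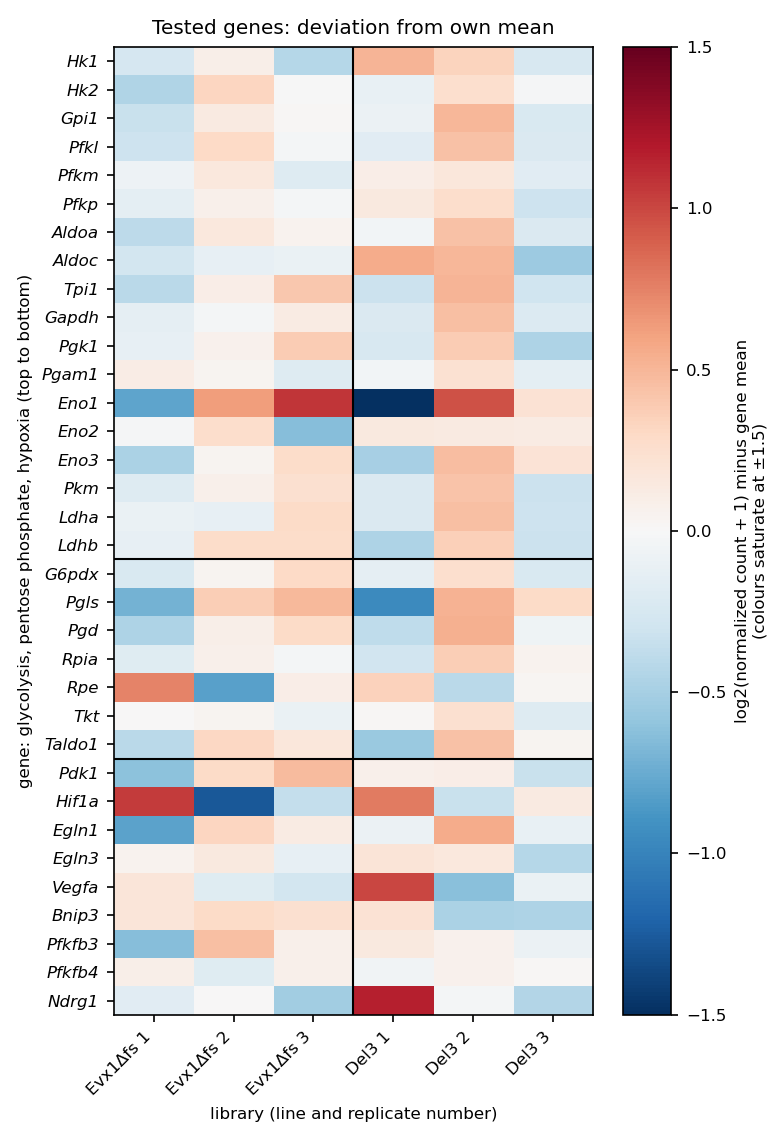
Deviation of log2(normalized count + 1) from the gene's own mean in each library for the 34 tested genes, in order of role. The Del3 replicate 2 column is raised for most glycolytic and pentose phosphate genes, and the columns of both replicate 1 libraries share the low values of *Eno1* and *Pgls* and the high value of *Hif1a*.

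Many glycolytic steps have several isoenzymes, and their mix was compared as shares of the family's summed reads per kilobase. *Hk2* made up 94.6% ± 1.14 (SD, n = 3) of hexokinase in Evx1Δfs and 93.3% ± 1.90 in Del3. *Pfkl*, the liver-type subunit, made up 81.4% ± 2.28 of phosphofructokinase in Evx1Δfs and 81.0% ± 2.82 in Del3. *Aldoa* accounted for 98.6% ± 0.206 and 98.3% ± 0.544 of aldolase. The same gene led each of these families in all 6 libraries. *Ldha* made up 93.5% ± 1.08 and 94.4% ± 0.433 of lactate dehydrogenase. *Eno3*, the muscle-type enolase, made up 89.7% ± 0.978 and 91.1% ± 0.667 of enolase as listed. Two-sided exact permutation tests of the 5 shares gave p = 0.4, 0.9, 0.7, 0.3 and 0.2 in that order. The lowest Benjamini-Hochberg value over the 5 families was 0.667, and the smallest p possible was 0.1. These tests did not use the pairing by replicate number. In each same-numbered pair the *Eno3* share as listed was higher and the *Hk2* share lower in Del3, and the *Pfkl*, *Aldoa* and *Ldha* shares were mixed.

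The enolase share depends on how reads were assigned to *Eno1*, the ubiquitous enolase gene. *Eno1* was listed at 71.3, 192 and 263 normalized counts in Evx1Δfs replicates 1 to 3 and 28.7, 243 and 144 in Del3. These levels are far below those of its neighbours in the pathway. *Gm5506*, annotated on chromosome 18 of mm9, holds 39.1% of the 100-base windows of *Eno1* transcripts unchanged. It was listed at 9642, 11004.8 and 14426 normalized counts in Evx1Δfs and 9499, 18534.8 and 9757 in Del3. *Eno1* therefore held only 0.301% to 1.79% of the reads on both rows, and reads of these genes may have been split between them in a way the table cannot undo. As an alternative chosen after the values were seen, the RPKM of *Gm5506*, over its own exon length, was added to that of *Eno1*. *Eno1* then made up 93.1% ± 0.724 of enolase in Evx1Δfs and 92.7% ± 1.86 in Del3, shares that depend on that choice of length. *Eno3* then fell to 6.61% ± 0.703 and 6.94% ± 1.81 (two-sided exact permutation test of the lines, p = 0.9). *Gm5506* had a log2 fold change of 0.06 between the lines (adjusted p = 1.00, limma). The log2 fold change of -0.60 for *Eno1* is a difference in what was assigned to that row, and it turned to 0.28 without Del3 replicate 1. It was -1.24 without Del3 replicate 2, -1.15 without Evx1Δfs replicate 1 and -0.22 without Evx1Δfs replicate 3, and -0.33 in edgeR and -0.34 in DESeq2.

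Near-identical copies touch other members too. The share of 100-base transcript windows found elsewhere in the genome was 89.8% for *Pgk1*, 87.1% for *Pgam1*, 75.3% for *Gapdh* (84 other places), 28.8% for *Bnip3* and 12.2% for *Pkm*. For *Gpi1*, *Ldhb*, *Tpi1*, *Rpe*, *Ldha* and *G6pdx* it was between 0.226% and 9.39%, and for the others apart from *Eno1*, including *Hk2*, *Pgls* and *Hif1a*, it was 0%. Levels of the genes with copies are uncertain to that extent. *Pgls* shares 20.6% of its exon bases with *Fam129c* on the same strand.

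The pentose phosphate enzymes had log2 fold changes between the lines from -0.09 (*Pgls*) to 0.09 (*Rpia*) and a median of -0.01. *G6pdx*, the gene for the rate-limiting glucose 6-phosphate dehydrogenase, had 1259.9, 1520.0 and 1823 normalized counts in Evx1Δfs and 1343, 1768 and 1268 in Del3. *Pgd*, which releases the carbon dioxide of the pathway, had 3223, 4743 and 5437 against 3427, 6461 and 4274. In both genes the lines overlapped throughout. *Tkt* had 7515, 7665 and 6954 normalized counts against 7557, 8787 and 6517, with a coefficient of variation of 10.2% (7.18% to 59.6% over the 34 genes). *Taldo1* had 2575, 4237 and 3849 against 2308, 4625 and 3497. Here the low values were the replicate 1 libraries of both lines. *Rpe* had 243, 82.0 and 155 normalized counts against 185, 109 and 148, with the highest value of each line in replicate 1 and the lowest in replicate 2. *Rpia* had 172, 207 and 193 against 160.2, 254 and 203, and both lines had their lowest value in replicate 1.

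Of the 9 hypoxia genes tested, 6 had a log2 fold change above 0 and 3 below, with a median of 0.08. *Ndrg1*, a stress-responsive HIF target, had 295, 334 and 232 normalized counts in Evx1Δfs replicates 1 to 3 and 749, 327 and 245 in Del3. *Vegfa*, the angiogenic growth factor, had 305, 238 and 222 against 540.4, 174 and 252. Both were highest in Del3 replicate 1, and the other Del3 values lay in or near the Evx1Δfs range. Their log2 fold changes were 0.46 (-0.40 to 1.33) and 0.19 (-0.68 to 1.05), and without Del3 replicate 1 they were -0.0033 and -0.27. *Hif1a* had a log2 fold change of 0.39 (-0.77 to 1.54), which ran from -0.15 without Evx1Δfs replicate 2 to 1.00 without Evx1Δfs replicate 1, where the unadjusted p fell below 0.05. *Bnip3*, a mitophagy receptor, had 385, 416 and 401 normalized counts in Evx1Δfs and 395, 245 and 247 in Del3. Its log2 fold change was -0.47 (-1.07 to 0.12; with the block, -0.96 to 0.02), with an unadjusted p below 0.05 only without Del3 replicate 1. *Pdk1*, a kinase that inhibits pyruvate dehydrogenase, had 820.4, 1535 and 1747 against 1319, 1349 and 994, and the lowest value was Evx1Δfs replicate 1. Log2 fold changes were 0.08 and 0.01 for *Pfkfb3* and *Pfkfb4*, which set the level of the phosphofructokinase activator. The prolyl hydroxylase genes *Egln1* and *Egln3* had log2 fold changes of 0.24 and -0.06. *Egln1* had 1031, 2248 and 1962 normalized counts in Evx1Δfs and 1701, 2659 and 1672 in Del3, so the lines overlapped. *Car9*, at 3.19 to 12.8 normalized counts, was not tested. EBs are mixtures of cell types, and fewer cells of a type and less RNA per cell cannot be told apart in these libraries.

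The HIF1 complex binds a short core, written ACGTG or GCGTG, in hypoxia response elements. Both strands were searched in the RefSeq promoter windows of GRCm38.p6, 300 bases each from 250 before to 50 after a start. A window was held for 34 of the 35 genes, and 30 of these (88.2%) had the core in at least 1 window. The share was 46.7% of all genes with a window and 68.2% of the tested genes with one. Some genes have several windows, and among genes with only 1 window it was 43.1%, against 82.6% of the 23 members with only 1. Windows were not matched for GC content. All 9 hypoxia genes with a window, 6 of 7 pentose phosphate genes and 15 of 18 glycolytic genes had it, and *Eno2*, *Gpi1*, *Rpe* and *Tpi1* did not. A match is a description of letters, not a site of binding, and ACGTG overlaps the E-box CACGTG, which was in 7.15% of windows. The 250 bases before the start are shown for *Hif1a* and *Pgls*, which differ between replicate numbers below, and for *Ldha* and *Bnip3*. Their windows held 7 matches for *Ldha* and 5 for *Bnip3* (5 or more occur in 1.66% of windows). *Hk1*, not shown, also has a window with 5. Capitals mark the core on either strand. *Hif1a* is chr12:73907617-73907866, plus strand; *Pgls* chr8:71591934-71592183, plus strand; *Ldha* chr7:46845554-46845803, plus strand; and *Bnip3* chr7:138909507-138909756, minus strand.
Hif1a: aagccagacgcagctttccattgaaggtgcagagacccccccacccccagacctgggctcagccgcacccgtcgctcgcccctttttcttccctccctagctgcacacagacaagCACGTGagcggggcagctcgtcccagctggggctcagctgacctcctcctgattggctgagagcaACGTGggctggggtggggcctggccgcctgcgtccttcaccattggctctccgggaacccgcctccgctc
Pgls: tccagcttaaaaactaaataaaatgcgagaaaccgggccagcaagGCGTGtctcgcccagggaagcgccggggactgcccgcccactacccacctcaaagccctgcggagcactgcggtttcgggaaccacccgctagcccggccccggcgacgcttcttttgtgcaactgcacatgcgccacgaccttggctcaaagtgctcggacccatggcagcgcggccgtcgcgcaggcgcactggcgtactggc
Ldha: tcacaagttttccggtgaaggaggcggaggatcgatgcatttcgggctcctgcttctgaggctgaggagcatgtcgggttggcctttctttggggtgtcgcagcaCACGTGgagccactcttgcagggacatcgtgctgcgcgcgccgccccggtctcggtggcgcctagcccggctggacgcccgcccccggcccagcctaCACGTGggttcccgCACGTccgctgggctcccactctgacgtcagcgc
Bnip3: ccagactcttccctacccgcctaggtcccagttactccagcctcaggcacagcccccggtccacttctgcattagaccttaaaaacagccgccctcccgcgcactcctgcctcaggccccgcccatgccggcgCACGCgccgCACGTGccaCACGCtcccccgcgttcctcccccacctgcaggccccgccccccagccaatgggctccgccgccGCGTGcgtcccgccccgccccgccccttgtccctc

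In the stretches shown, *Hif1a* has 3 matches, *Pgls* 1, *Ldha* 5 and *Bnip3* 5, where each CACGTG counts once per strand.

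The replicate number accounted for more of the variation than the line did. With sums of squares pooled over the 34 genes, it took 70.8% of the variance of the log2 values, the line 7.62% and the rest 21.6%. Over all genes tested these were 60.5%, 13.7% and 25.8%, and 3 replicate numbers have more room to differ than 2 lines. Pooling gives genes with a large spread more weight, so these are not the shares of a typical gene. *Eno1* and *Hif1a* had the largest coefficients of variation of the 34, at 59.6% and 55.0%. For the 7 pentose phosphate genes the replicate number took 88.8% and the line 0.782%. *Pgls*, *Eno1* and *Hif1a* differed between replicate numbers, 3 of the 34 genes, against 546 of 12891 overall (4.24%; limma F test, adjusted p under 0.05). The count among the 34 genes is small and was not tested against that background. edgeR's quasi-likelihood test called the same 3, with 3.58% of all genes. At an unadjusted p under 0.05, 10 of the 34 passed, against 27.7% of all genes.

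*Pgls*, the lactonase of the oxidative branch, had 1082, 2272 and 2471 normalized counts in Evx1Δfs replicates 1 to 3 and 912, 2530.2 and 2162 in Del3. Both replicate 1 libraries were lowest, and the log2 differences of replicates 2 and 3 from replicate 1 were 1.27 and 1.22 (adjusted p = 0.0290, limma). *Eno1*, with the values given above, was also lowest in both replicate 1 libraries, with log2 differences of 2.23 and 2.08 (adjusted p = 0.0329, limma). *Gm5506* did not pass (adjusted p = 0.427, limma), so the *Eno1* call concerns the row's small share of the enolase reads. *Hif1a* ran the other way, with 546, 109 and 207 normalized counts in Evx1Δfs and 456, 209 and 289 in Del3. Both replicate 1 libraries were highest, and the log2 differences of replicates 2 and 3 from replicate 1 were -1.72 and -1.03 (adjusted p = 0.0428, limma). With reads scaled to each library's total only *Pgls* passed. Leaving out a library left 1 gene without Evx1Δfs replicate 1 (*Eno1*) and 1 without Del3 replicate 1 (*Hif1a*), and 6 to 9 genes without any of the others.

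**Figure D4:**
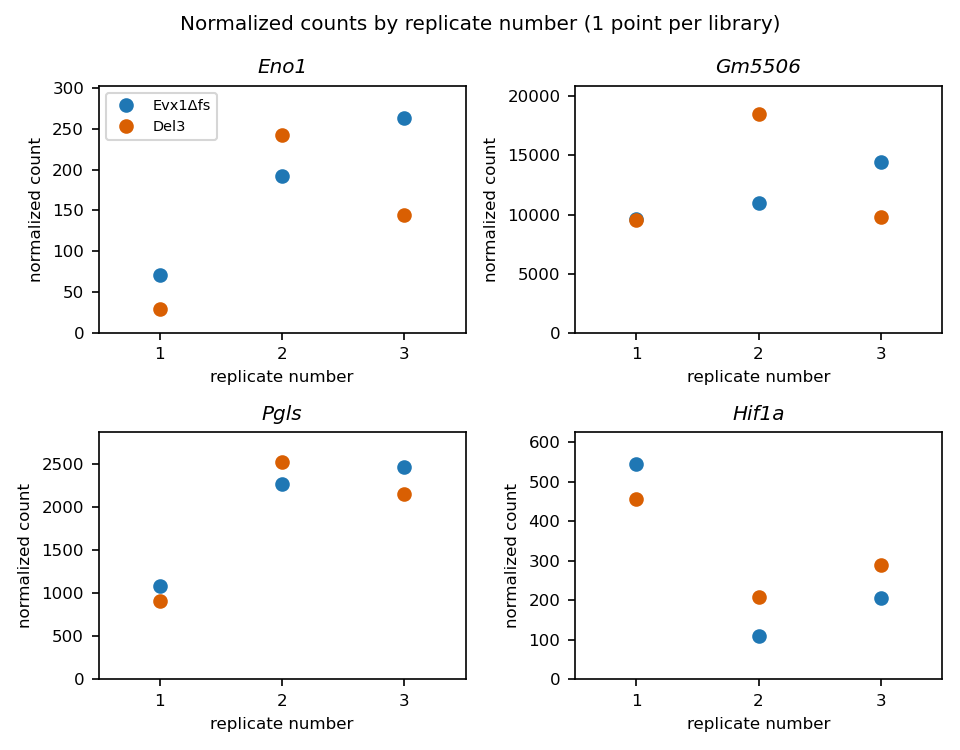
Normalized counts of *Eno1*, *Gm5506*, *Pgls* and *Hif1a* against replicate number, 1 point per library, coloured by line, with axes from 0. *Pgls* and *Eno1* are lowest and *Hif1a* highest in both replicate 1 libraries.

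Both replicate 1 libraries lay below the other 4 for 8 of the 34 genes (22.7% of all genes tested): *Eno1*, *Eno3*, *Hk2*, *Pgd*, *Pgls*, *Rpia*, *Taldo1* and *Tpi1*. They lay above the other 4 for *Hif1a*, *Rpe* and *Vegfa*, 3 of the 34 (22.2%). Both replicate 2 libraries were the highest for 10 of the 34 genes (10.8% of all genes), among them *Aldoa*, *Gpi1*, *Pfkl*, *Pfkm*, *Egln1*, *Tkt* and *Taldo1*. They were the lowest for 1, *Rpe* (13.3%). Both replicate 3 libraries were the lowest for 5 (5.35%) and the highest for 0 (6.47%). These counts were made after the values were seen and are a description.

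Exon length and GC content moved with the replicate number across all genes. The median log2 difference of replicates 2 and 3 from replicate 1 ran from 0.26 in the quintile of genes with the shortest exons to -0.36 in that with the longest. It ran from -0.52 in the quintile with the lowest GC content to 0.16 in that with the highest. *Hif1a* lies in the lowest GC quintile, at 40.1%, and *Pgls* in the highest, at 57.7%. After a correction for length and GC content, chosen after the data were seen, *Pgls* and *Eno1* kept adjusted p-values of 0.0272 and 0.0296, and *Hif1a* had 0.204 (limma). The corrected log2 differences of replicates 2 and 3 from replicate 1 were 1.08 and 1.28 for *Pgls* and 2.14 and 2.18 for *Eno1*. For *Hif1a* they shrank to -0.78 and -0.58. Some markers of other cell types moved with the replicate number too. The summed primitive streak and mesoderm markers were 6049 to 7624 normalized counts in the replicate 1 libraries and 8221 to 9104 in the others. Of the 6 genes, *Eomes* (2072 and 2734 against 3185 to 4027) and *Mesp1* were lower in both replicate 1 libraries, *T*, *Mixl1*, *Tbx6* and *Kdr* overlapped, and 0 passed the test. The 5 blood markers summed to 1144 to 1158 against 786 to 971, with *Hba-x* and *Gata1* higher in both replicate 1 libraries and *Tal1*, *Hbb-y* and *Runx1* overlapping. *Hba-x*, an embryonic globin gene, had 221 and 355 normalized counts in the replicate 1 libraries and 53.9 to 78.0 in the others (adjusted p = 0.0238, limma) and was the only 1 of the 5 that passed. The neurectoderm sum, nearly all *Nes*, was 1472 to 1518 in the replicate 1 libraries against 1734 to 2289. The pluripotent, endoderm and cardiac sums overlapped; single members of these lists did not, among them *Nanog*, *Foxa2*, *Cer1* and *Actc1* (lower in both replicate 1 libraries) and *Gata4* (higher), and 0 of them passed the test. The replicate 1 libraries of both lines were also the deepest. The parts of depth, of length and GC content and of cell types in these differences were not tested beyond the correction for length and GC content.

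**Figure D5:**
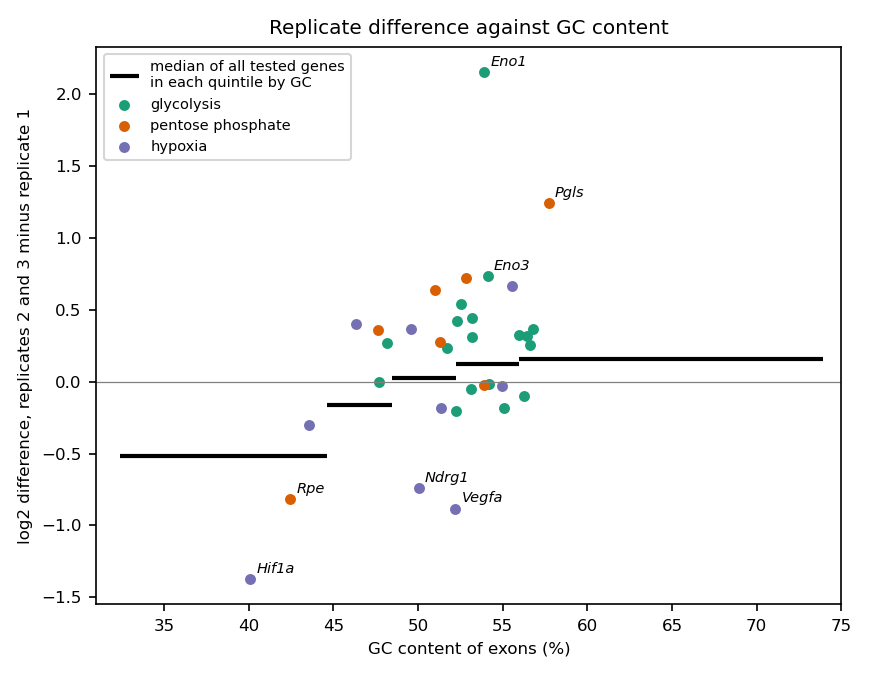
Log2 difference of replicates 2 and 3 from replicate 1 against exon GC content (percent) for the 34 tested genes, coloured by role; horizontal bars are the medians of all tested genes in each quintile by GC content. The bars rise from -0.52 to 0.16, *Hif1a* lies below the bar of its quintile, and *Eno1* and *Pgls* lie above theirs.

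Genes next to these pathways gave 0 calls between the lines as well. Of 5 transporters of glucose and lactate, 15 other glycolytic and gluconeogenic enzymes, 5 other pentose phosphate enzymes, 12 genes of pyruvate entry, 7 other HIF regulators and 29 other HIF targets tested, 0 passed, with or without the block. The largest values were for scarce genes: *Pklr*, the liver and erythroid pyruvate kinase, had a log2 fold change of -1.08 at 7.97 to 50.4 normalized counts, and *Stc1* one of 1.06 at 4.73 to 31.1. *Slc2a1*, the main glucose transporter, had one of 0.18 and was at 8722 to 16858 normalized counts. *Slc16a1*, a lactate transporter, had 7257, 8306 and 10591 in Evx1Δfs and 4939, 5341 and 9004 in Del3, a log2 fold change of -0.48 (-1.10 to 0.15). It was lower in Del3 in each same-numbered pair, though the lines overlapped. The other genes with the largest changes in their lists were *Ldhd* (-0.88), *Ppp1r3c* (-0.93), *Pdk2* (0.63), *Pdk4* (-0.48), *Epas1* (0.39), *Hif3a* (0.34), *Rbks* (-0.27) and *H6pd* (0.20), with adjusted p = 1.00 each in limma. Between replicate numbers, *Ero1l*, *Tfrc* and *Wsb1* were called, 3 of the 29 other HIF targets (4.24% of all genes), and 0 in the other lists. All 3 were highest in both replicate 1 libraries, but the 29 targets did not move that way as a set. Their median log2 difference from replicate 1 was 0.14 in replicate 2 and -0.04 in replicate 3. *Tfrc*, the transferrin receptor, had 714, 129 and 305 normalized counts in Evx1Δfs and 1074, 299.6 and 378 in Del3.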

How the data were processed

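RNA was poly(A)-selected and sequenced on an Ion Proton. The authors aligned the reads to mm9 (TopHat2, followed by TMAP) and used HTSeq, standard settings, for gene counts; tool versions, the gene annotation and the use of strand are not given in the sources used here. The values the authors deposited are normalized signal: counts divided by 1 size factor per library, as DESeq2 gives. Within each library, 100% of values were whole multiples of 1 step (tolerance 0.01 of a read), so the reads were recovered by division. The design allowed for edgeR's quasi-likelihood test in case the table held raw counts.

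limma 3.58.1 (R 4.3.3) with an intensity trend was fitted to log2(normalized count + 1) in the 12891 genes kept by filterByExpr of edgeR 4.0.16 (minimum count 10), with Benjamini-Hochberg adjustment over all of them and a threshold of 0.05. Fold changes are on that log2 scale. Replicate numbers were tested by an F test in a model with line and replicate number. Recovered reads were also tested with edgeR and DESeq2 1.42.0. RPKM used the union of GENCODE exons of NCBIM37, the assembly known as mm9, where all 35 genes were found; promoter windows are from RefSeq. Shares of reads and isoenzymes were compared by exact permutation tests. limma and edgeR were tested on simulated data with known changes of line and of replicate number. DESeq2 was tested on such data for the line only. The other methods, among them the permutation tests and the length and GC correction, were not tested in that way.

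Per the series' design text and the labels, both lines were set up together and each replicate on its own day; replicate numbers in the sample titles were taken as these pairs, although no label gives the date behind a number. The correlation of same-numbered libraries' deviations from the line means across genes was 0.738, 0.317 and -0.0530 for numbers 1 to 3. With 3 differentiations of 1 line each, p-values measure the spread between differentiations, and depth intervals were not used because replicate spread exceeds counting error. The members and lists were chosen with earlier results of these data known. All members are described; genes of the neighbouring pathway lists are named if called or if they had one of the 2 largest changes in their list, and single cell type markers were picked after their values were seen.

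Alternatives were other normalizations (TMM, total reads), filters (none, at least 10 reads in every library), pseudocounts of 0.5 and 5, edgeR, DESeq2, the replicate block, and leaving out each library; a length and GC correction (loess, span 0.3) and pooling of *Gm5506* with *Eno1* were chosen after seeing the data.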

Additional observations from a re-analysis of the deposited data

How the results depend on the processing

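Of 646 recomputed fold changes of single members between the lines, 0 passed the threshold and all moved by less than the spread between replicates; in 69 the sign differed, 55 of them with 1 library left out. The count of the 34 genes called between the lines was 0 under each alternative run, and their smallest adjusted p was 0.992, with the replicate block in limma. With the replicate block, the count of all genes called between the lines went from 2 to 3 in limma and in edgeR and from 3 to 9 in DESeq2, with 0 of the 34 among them; the pairing moved no other call. Genes called between replicate numbers numbered 546, against 347 with TMM and 317 with total-read normalization, and 197 to 3175 when 1 library was left out. Members among them numbered 3, against 1 (*Pgls*) with total-read normalization and 1 to 9 when 1 library was left out; 2 were called with TMM or the length and GC correction (*Eno1* and *Pgls*). With 1 library left out, the only library left with that number, from the other line, is assumed to vary like the rest. The Eno3 share was 1.37 percentage points higher in Del3, 3.17 with reads not divided by length and 0.335 with *Gm5506* added to *Eno1*. The causes of these shifts were not tested. Depth limited *Car9* alone, at 3.19 to 12.8 normalized counts.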
